A study of Mus musculus with 2 samples.

Results

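The genes described here encode 10 surface or secreted proteins through which a cell restrains immune attack, out of 31017 genes in a count table of TUBO cells. They were chosen by name, with earlier results of these data known, and all 10 are in the table. TUBO is a mouse mammary cancer line that came from a tumour of a BALB/c mouse carrying a rat Her2/neu transgene. The cells received no treatment and grew as flat cultures on plastic in serum-containing medium, and the RNA of 2 libraries was sequenced as 1 group. No second condition was measured, and the results are therefore gene levels. The labels do not say whether the replicates were separate cultures, and the spread between them may be technical.

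Checkpoint ligands are proteins of the B7, nectin and galectin families that bind inhibitory receptors on T cells and natural killer cells. "Don't-eat-me" ligands such as CD47 and CD24 act on macrophages, where they bind receptors that carry inhibitory signals and hold back engulfment. Mammary tumour cells can carry both kinds, and several of the genes are known to be induced by interferon or restricted to particular cell types.

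Replicate 1 held 35453278 counts and replicate 2 held 34098259 counts. Levels are counts relative to the library total after scaling by TMM factors (CPM), and levels of different genes are compared only after division by exonic length (TPM). Values are mean ± SD over both libraries (n = 2). A gene was called detected at 1 CPM or more in each library, which held for 11692 genes or 37.7% of the table. The table also holds non-coding genes, and 12710 of its genes had no count. This share is therefore an unlike baseline for the gene lists below. With 0 counts, levels up to the floor of 0.0842 CPM (replicate 1) or 0.0885 CPM (replicate 2) remain possible. Floors and intervals cover counting error alone. The cells carried the RNA of an epithelial line. All 6 epithelial markers were detected, with the keratin genes Krt18 at 3232 ± 68.1 TPM and Krt8 at 1333 ± 48.0 TPM, the adhesion gene Epcam at 1561 ± 21.7 TPM, the claudin gene Cldn3 at 783 ± 34.2 TPM, the cadherin gene Cdh1 at 646 ± 31.5 TPM and Erbb2, the mouse Her2 gene, at 503 ± 4.604 TPM. Whether the Erbb2 count holds reads of the rat transgene was not tested. None of 16 leukocyte markers was detected; their summed level was 1.122 CPM in replicate 1 and 1.09 CPM in replicate 2. The highest of them were the myeloid genes Csf1r (18 and 15 counts) and S100a8 (17 and 12 counts), followed by Cd79a (2 and 6) and Itgax (2 and 1), while 8 had no count, among them Ptprc, Nkg7, Cd3e, Lyz2 and Adgre1. None of 6 endothelial markers was detected (summed 0.365 and 0.324 CPM). Pecam1 had 6 and 8 counts, Vwf 3 and 2, and Tek 4 and 1, while Cdh5, Emcn and Kdr had none. Of 8 fibroblast markers (summed 7.91 and 8.93 CPM) only Pdgfra was detected, with 245 and 285 counts. Col1a1 had 37 and 18 counts (1.04 and 0.531 CPM), so that 2 of the 8 passed at a minimum of 0.5 CPM or with replicate 1 alone, and the other 6 (Col1a2, Col3a1, Dcn, Lum, Pdgfrb and Thy1) had no count. In bulk RNA a gene expressed by few cells and a gene expressed weakly by all cells cannot be told apart.

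Of the 10 ligand genes 8 were detected, beside 37.7% of the table, and they spanned a wide range of levels. Cd24a stood highest at 339 ± 7.21 TPM, followed by Cd200 (183 ± 8.75 TPM), Vtcn1 (102 ± 0.968 TPM), Cd276 (75.6 ± 4.48 TPM), Cd47 (58.6 ± 2.35 TPM), Nectin2 (57.8 ± 1.84 TPM), Pvr (26.1 ± 0.104 TPM) and Lgals9 (16.9 ± 0.277 TPM). Cd274, the gene of PD-L1, was below the detection minimum at 0.680 ± 0.132 TPM, and Pdcd1lg2, the gene of PD-L2, had no count. Together the 10 genes summed to 860 ± 26.1 TPM, of which Cd24a took 39.5 ± 0.360% and Cd200 21.3 ± 0.371%. Their median was 58.2 TPM, beside a median of 28.6 TPM over 11577 detected genes with a length.

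**Figure D1:**
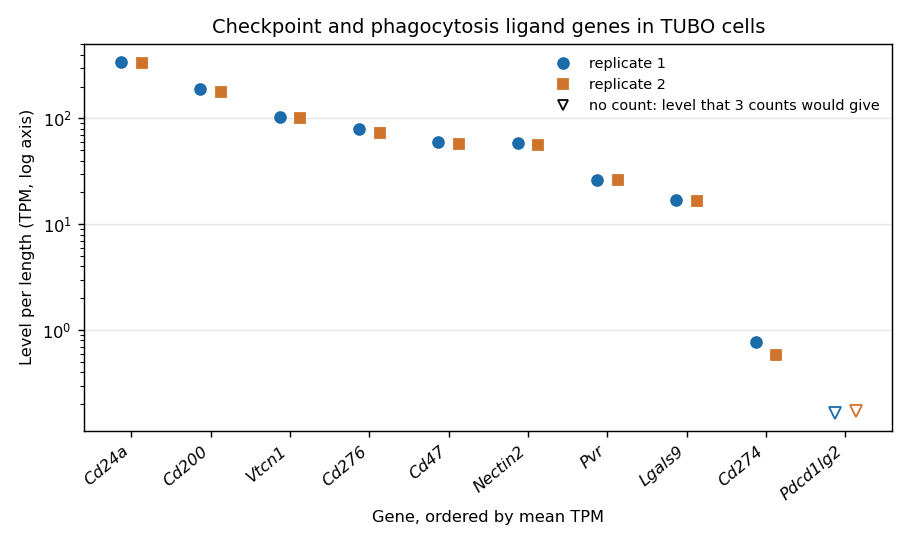
Level per exonic length (TPM, log axis) of the 10 genes in each of 2 libraries, ordered by mean; hollow triangles mark the level that 3 counts would give where no read was counted. The points of both libraries lie close together for the 8 detected genes, and Cd274 and Pdcd1lg2 sit far below them.

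In the order of levels, 8 of 9 neighbouring pairs of genes were apart, meaning that both libraries of the upper gene lay above both libraries of the lower one. The exception was the pair of Cd47 and Nectin2, with a ratio of 1.02 in replicate 1 and 1.01 in replicate 2. The widest step with a ratio was between Lgals9 and Cd274, at 22.1 and 28.5 in replicates 1 and 2. The step from Cd274 to Pdcd1lg2 has no ratio, since Pdcd1lg2 had no count. The smallest p of a two-sided exact sign test over 2 libraries is 0.5, and such ratios carry no test here. Among the detected genes in TPM, Cd24a exceeded 96.9% and Cd200 93.0%. Vtcn1 exceeded 85.3% of them, Cd276 78.9%, Cd47 72.3% and Nectin2 71.9%, while Pvr (47.1%) and Lgals9 (34.1%) lay below the median. The place of Pvr depends on the division by length, since in CPM it exceeded 55.0% of detected genes. With the longest transcript as length it stood at 42.8 TPM, which is on another scale. On that scale Vtcn1, whose own length is the same in both, stood at 79.1 TPM instead of 102 TPM. The share of detected genes below Pvr on that scale was not computed.

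**Figure D2:**
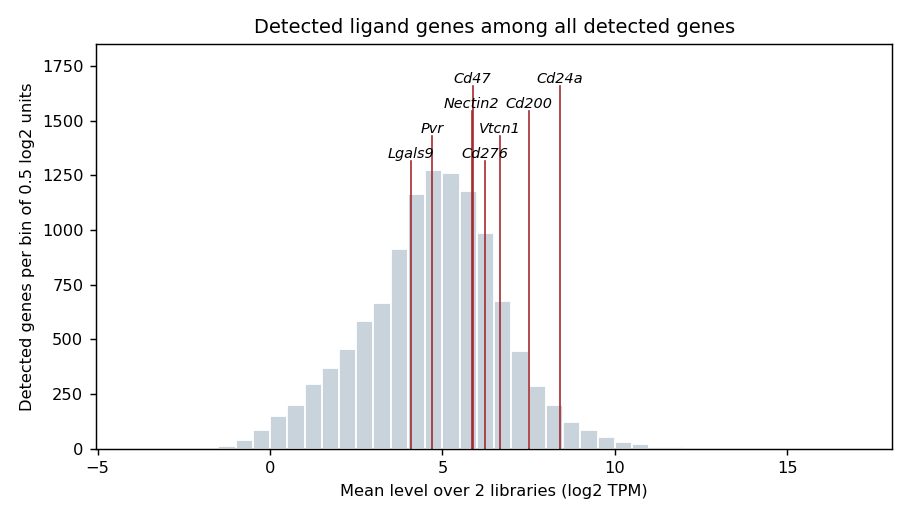
Number of detected genes per bin of mean level (log2 TPM, bins of 0.5), with red lines at the 8 detected ligand genes. With union exonic lengths, Lgals9 (16.9 TPM) and Pvr (26.1 TPM) lie below the median, and Cd24a (339 TPM) and Cd200 (183 TPM) lie in the upper tail.

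The B7 family holds 4 of the 10 genes. Its members are immunoglobulin-like ligands of receptors on T cells, and PD-L1 and PD-L2 bind the inhibitory receptor PD-1. Cd276 (B7-H3) and Vtcn1 (B7-H4) are held to be mainly inhibitory, and their receptors are less well settled. The windows from 250 bases before to 50 bases after the RefSeq start of each gene (build GRCm38.p6, 5′ to 3′ on the strand of the gene) are shown because these 4 relatives ran from no count to 102 TPM while their start regions differ in CpG content. Capitals mark each CpG. Cd274 lies at chr19:29367188-29367487 (plus strand), Pdcd1lg2 at chr19:29410669-29410968 (plus strand), Cd276 at chr9:58554984-58555283 (minus strand) and Vtcn1 at chr3:100825209-100825508 (plus strand).
Cd274: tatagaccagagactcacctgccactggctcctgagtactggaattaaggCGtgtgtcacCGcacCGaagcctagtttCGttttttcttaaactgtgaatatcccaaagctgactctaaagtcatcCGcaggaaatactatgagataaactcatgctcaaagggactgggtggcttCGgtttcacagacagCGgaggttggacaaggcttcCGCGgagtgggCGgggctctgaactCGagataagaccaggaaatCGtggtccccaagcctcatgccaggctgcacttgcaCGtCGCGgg
Pdcd1lg2: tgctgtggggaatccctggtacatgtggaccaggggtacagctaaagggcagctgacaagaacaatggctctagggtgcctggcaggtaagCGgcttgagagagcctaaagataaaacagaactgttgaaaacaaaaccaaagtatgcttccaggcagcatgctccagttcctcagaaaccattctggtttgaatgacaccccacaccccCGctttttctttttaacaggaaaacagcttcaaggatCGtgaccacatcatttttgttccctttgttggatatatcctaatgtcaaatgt
Cd276: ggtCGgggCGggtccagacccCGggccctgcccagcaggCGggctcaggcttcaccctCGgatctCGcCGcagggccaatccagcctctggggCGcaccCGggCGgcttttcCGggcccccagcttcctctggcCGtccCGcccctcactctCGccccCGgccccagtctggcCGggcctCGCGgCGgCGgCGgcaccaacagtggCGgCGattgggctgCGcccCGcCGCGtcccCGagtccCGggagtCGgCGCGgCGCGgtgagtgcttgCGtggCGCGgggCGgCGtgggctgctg
Vtcn1: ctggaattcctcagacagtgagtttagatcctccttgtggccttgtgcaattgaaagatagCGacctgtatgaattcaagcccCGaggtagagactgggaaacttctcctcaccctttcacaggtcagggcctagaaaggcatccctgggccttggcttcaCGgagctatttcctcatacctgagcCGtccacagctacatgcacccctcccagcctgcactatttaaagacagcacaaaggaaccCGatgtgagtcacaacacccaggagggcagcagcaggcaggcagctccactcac

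The window of Cd276 held 39 CpGs, more than 94.7% of 23745 windows of genes in the table. That of Cd274 held 15 (more than 57.1%), that of Vtcn1 5 (more than 31.1%) and that of Pdcd1lg2 3 (more than 19.4%). The median was 21 over windows of detected genes and 4 over windows of genes that were not detected. Level and CpG count did not run in parallel within these 4 genes, since Vtcn1 had few CpGs and the highest TPM, and Cd274 had more CpGs and a level below the detection minimum. These are features of the reference sequence, and no methylation or binding was measured.

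Cd276 had 2674 counts (75.02 CPM) in replicate 1 and 2368 counts (69.8 CPM) in replicate 2. Vtcn1 had 2489 counts (69.8 CPM) and 2365 counts (69.7 CPM). The libraries lay closer together for Vtcn1 than for Cd276. Per length, Cd276 stood at 0.770 and 0.718 times the level of Vtcn1 in replicates 1 and 2. Without the division by length the order turned round, with a Cd276 to Vtcn1 ratio of 1.04 ± 0.0517 in CPM. An annotated gene on the opposite strand, Gm10657, overlaps 11.4% of the exonic bases of Cd276, and whether reads were counted by strand is not given in the sources used here. Part of the Cd276 count is therefore uncertain.

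Cd274 had 26 counts in replicate 1, or 0.729 CPM (95% exact Poisson interval 0.476 to 1.07), and 19 counts in replicate 2, or 0.560 CPM (0.337 to 0.875). Both values lay above the floor and below the detection minimum, although the interval of replicate 1 reached it. Cd276 was 102 and 123 times as abundant per length as Cd274 in replicates 1 and 2. An antisense gene, AC119228.1, overlaps 14.1% of the exonic bases of Cd274. Of the 50-base windows of the Cd274 transcript, 12.4% occur in transcripts of other genes on either strand, and 10.4% in those of AC119228.1. Whether reads of other transcripts are in this low count was not tested. Pdcd1lg2 had no read in either library. Per length, the observed Cd274 counts were 4.69 times (replicate 1) and 3.43 times (replicate 2) a floor of 3 counts for Pdcd1lg2. The counting error of Cd274 itself is not in these ratios, so they are not lower bounds.

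Among the 8 other B7-related genes, Vsir, the gene of the inhibitory ligand VISTA, was detected at 5.80 ± 0.185 TPM and the butyrophilin gene Btn1a1, whose protein coats milk fat globules, at 2.48 ± 0.00944 TPM. Cd80, the gene of a costimulatory ligand of CD28, had 17 and 26 counts (0.640 ± 0.206 TPM). Btn2a2 had 3 and 9 counts, and Btnl2 and Btnl9 had none. In all, 4 of 12 B7 family genes were detected, against 37.7% of the table.

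PD-L1 is best known as a target of interferon gamma, whose receptor signals through the kinases JAK1 and JAK2 to the transcription factor IRF1. All 18 genes of a list of PD-L1 regulators were detected, beside 37.7% of the table, with a median of 47.6 TPM. They included the transcription factor gene Stat3 (117 ± 3.79 TPM), the kinase gene Gsk3b (99.4 ± 0.986 TPM), Cmtm4 (76.8 ± 2.37 TPM), a relative of the PD-L1 stabiliser gene Cmtm6, and the palmitoyltransferase gene Zdhhc3 (41.8 ± 0.214 TPM). Irf1 stood at 18.5 ± 0.979 TPM and the ubiquitin ligase gene Btrc at 5.71 ± 0.105 TPM. Of the receptor chain, Ifngr1 stood at 48.1 ± 1.96 TPM, Ifngr2 at 41.4 ± 0.754 TPM and Jak1 at 47.1 ± 0.573 TPM, genes named here after their values were seen. Per length each of these named regulators stood above Cd274, which was at 0.680 ± 0.132 TPM.

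Cd274 (chromosome 19, 29367455 to 29388095, GRCm38, plus strand) and Pdcd1lg2 (29410919 to 29471161, plus strand) lie 22.8 kb apart. Plgrkt, the gene of a plasminogen receptor, starts 65 bases upstream of Cd274 on the opposite strand, at position 203 of the 300-base window printed above. Plgrkt had 962 and 910 counts (27.0 ± 0.343 TPM), and per length it was 35.3 and 45.7 times as abundant as Cd274 in replicates 1 and 2. The 2 genes thus share a start region and differ widely in level. Farther out on the side of Plgrkt, Jak2 stood at 57.3 ± 1.25 TPM and Insl6, the gene of an insulin-like peptide, at 20.7 ± 0.660 TPM. Rln1, a relaxin gene on that side, had 0 and 1 counts. Beyond Pdcd1lg2, Ric1 stood at 33.7 ± 0.614 TPM. Of 5 protein-coding neighbours of Cd274, counting Pdcd1lg2, 3 were detected, beside 37.7% of the table, which also holds non-coding genes. Cd276 lay beside Nptn, the gene of an adhesion molecule, at 135 ± 4.98 TPM, and Vtcn1 between the Golgi mannosidase gene Man1a2 at 137 ± 3.22 TPM and Trim45 at 3.93 ± 0.131 TPM.

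**Figure D3:**
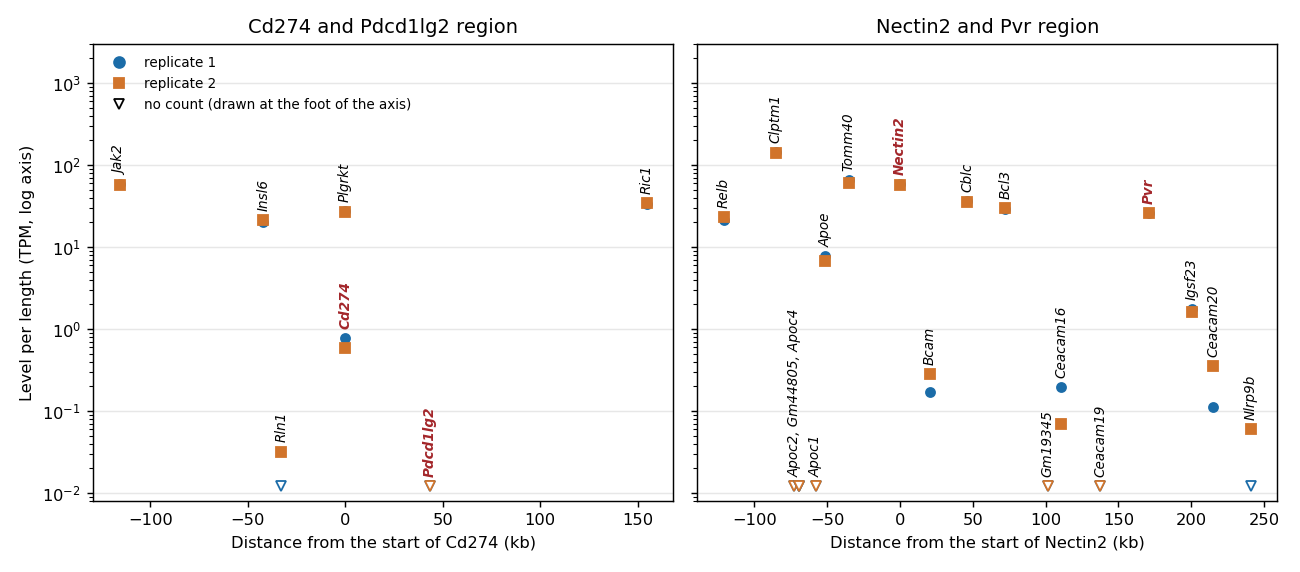
Levels per length (TPM, log axis) of protein-coding genes by the distance of their start from that of Cd274 (left) or Nectin2 (right), for each library; the names of ligand genes are in red, and hollow triangles at the foot mark genes with no count. Cd274 lies below Plgrkt at nearly the same position, and Nectin2 and Pvr lie among genes with and without counts.

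Of the ligands that act on macrophages, Cd24a and Cd200 were the most abundant of the 10 genes per length, and Cd47 was the fifth. Cd24a encodes a short, heavily glycosylated protein on a lipid anchor, which binds Siglec-10 in humans and Siglec-G in mice. It had 8250 counts (231 CPM) in replicate 1 and 7710 counts (227 CPM) in replicate 2. Cd47 encodes a membrane protein that binds SIRP alpha on macrophages. It had 3511 counts (98.5 CPM) and 3195 counts (94.2 CPM). Cd24a was 5.72 and 5.87 times as abundant per length as Cd47 in replicates 1 and 2, and 2.38 ± 0.0448 times in CPM. Of the 50-base windows of the Cd24a transcripts, 2.75% occur in another gene, Gm6212; genomic sequence outside transcripts was not searched.

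Cd200 encodes a membrane glycoprotein whose receptor restrains myeloid cells. It had 5837 counts (164 CPM) in replicate 1 and 5254 counts (155 CPM) in replicate 2. Per length it stood at 3.14 and 3.11 times the level of Cd47, and at 1.65 ± 0.0128 times in CPM. Cd200 and Cd47 both lie on chromosome 16 (45382135 to 45409053 and 49800533 to 49915010), with 10 annotated transcripts for Cd47 and 11 for Cd200, which counts per gene do not separate. The start window of Cd47 was rich in CpGs (35 or 36 for its 2 RefSeq starts), while that of Cd200 held 8 although its level was higher. The nearest protein-coding neighbours of Cd200 were Gm609, with no count, and Btla, the gene of an inhibitory receptor of lymphocytes, at 3.70 ± 0.258 TPM. Those of Cd47 were the cilium gene Ift57 at 12.6 ± 0.524 TPM and Bbx at 56.1 ± 0.945 TPM. Cd24a lay between 1700021F05Rik (18.7 ± 0.402 TPM) and Qrsl1 (16.4 ± 0.645 TPM), both below its own 339 ± 7.21 TPM.

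Of 8 genes of the CD47 axis, Cd47 among them, 6 were detected, beside 37.7% of the table. Without Cd47 it was 5 of 7. Thbs1, the gene of the secreted CD47 ligand thrombospondin-1, stood at 433 ± 7.24 TPM, and per length it was 7.28 and 7.52 times as abundant as Cd47. The integrin genes Itgav (92.6 ± 1.12 TPM) and Itgb3 (50.5 ± 0.683 TPM), whose products form a complex with CD47, were detected too, and Thbs2 had no count. Qpctl, the gene of the enzyme that modifies the amino end of CD47 for SIRP alpha binding, stood at 11.3 ± 0.229 TPM, and its relative Qpct had 0 and 2 counts. Qpctl is named after its value was seen. All 26 measured genes of lipid anchor (GPI) synthesis, which the CD24 protein needs to reach the surface, were detected, beside 37.7% of the table. Their median was 30.8 TPM. Among them were Pigt at 148 ± 6.20 TPM, Pigq at 77.8 ± 4.87 TPM, Pign at 33.5 ± 0.696 TPM, Gpaa1 at 77.4 ± 1.70 TPM, Pgap3 at 8.82 ± 1.27 TPM and Pigv at 6.02 ± 0.304 TPM.

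Genes of the opposing "eat-me" signals were mostly detected, at 11 of 12, against 37.7% of the table. Calr, whose product calreticulin prompts engulfment when it is exposed on the surface, stood at 824 ± 20.1 TPM and per length at 13.9 and 14.2 times the level of Cd47. The bridging protein gene Mfge8 (528 ± 26.7 TPM), the annexin gene Anxa1 (506 ± 12.2 TPM) and the lipid scramblase gene Ano6 (81.7 ± 3.50 TPM) were also detected. The scramblase gene Xkr8 was at 3.12 ± 0.115 TPM, and Slamf7, a gene of haematopoietic cells, had no count. RNA levels do not say how much calreticulin lies on the cell surface.

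Nectin2 and Pvr encode adhesion molecules that bind the inhibitory receptor TIGIT and the activating receptor DNAM-1 on T and natural killer cells. Nectin2 had 1917 counts (53.8 CPM) in replicate 1 and 1765 counts (52.0 CPM) in replicate 2. Pvr had 1487 counts (41.7 CPM) and 1424 counts (42.0 CPM). Per union of exons Nectin2 was 2.26 and 2.17 times as abundant as Pvr, but 1.34 ± 0.0373 times when each gene was divided by its longest transcript, since the exons of Pvr add up to 6122 bases and its longest transcript has 2905. The direction was the same under both lengths. The antisense gene Gm20512, which overlaps 3.86% of the exonic bases of Nectin2, had 2 and 8 counts.

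Both genes lie on chromosome 7 on the minus strand, Nectin2 from 19716644 to 19750483 and Pvr from 19903578 to 19921160. Relb and Clptm1, also within 100 kb of Nectin2, stood at 22.4 ± 1.32 TPM and 142 ± 3.81 TPM. Next to Nectin2, the mitochondrial import gene Tomm40 was at 62.8 ± 3.08 TPM and Bcam, the gene of a laminin-binding adhesion molecule, had 5 and 8 counts. Next to Pvr, Ceacam19 had no count and Igsf23 had 37 and 33 counts (1.70 ± 0.0920 TPM). Of 7 neighbours of Pvr, 1 was detected, against 6 of 11 around Nectin2, where Apoc1, Apoc2 and Apoc4 had no count. Over all 10 ligand genes 21 of 40 distinct measured neighbours, all protein-coding, were detected, beside 37.7% of the table, which also holds non-coding genes. Cd274 and Pdcd1lg2, neither of them detected, are counted here as neighbours of each other. The nearest gene on each side is counted even where it lies beyond 100 kb.

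In the nectin and nectin-like family 7 of 9 genes were detected, beside 37.7% of the table. Without Nectin2 and Pvr it was 5 of 7. Cadm1, the gene of an adhesion molecule that binds the receptor CRTAM, stood at 63.2 ± 4.99 TPM. Nectin4 stood at 44.7 ± 0.798 TPM, Nectin3 at 8.76 ± 0.138 TPM and Nectin1 at 18.04 ± 1.54 TPM, and Cadm2 and Cadm3 had no count. Among 9 measured genes of ligands of natural killer cell receptors, most of them activating, 4 were detected, beside 37.7% of the table. Nectin2 and Pvr are 2 of these 4. The others were Ulbp1, the gene of a ligand of NKG2D, at 50.05 ± 0.376 TPM, and Clec2d, whose product binds an inhibitory receptor of mouse natural killer cells, at 17.2 ± 0.457 TPM. H60b had 24 and 22 counts, and Cd48, Raet1d and Raet1e had none. NKG2D ligand genes differ between mouse strains, so their values in cells of BALB/c descent are uncertain.

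Lgals9 encodes galectin-9, a secreted lectin that binds TIM-3. It had 339 counts (9.51 CPM) in replicate 1 and 319 counts (9.41 CPM) in replicate 2, the lowest of the detected ligand genes. Its start window held 4 CpGs and was the only one among the 8 genes with a window to hold the core of an interferon-stimulated response element on either strand (TTTC and TTTC with 2 free bases between them), which 3.42% of all windows hold. Of the galectin genes 5 of 8 were detected, beside 37.7% of the table. Without Lgals9 it was 4 of 7. Lgals3, the gene of a galectin abundant in epithelia, stood at 346 ± 6.82 TPM, and per length it stood at 20.6 and 20.5 times the level of Lgals9. Lgals8 was at 30.7 ± 0.698 TPM, Lgals4, a gene of gut epithelium, at 5.50 ± 0.348 TPM and Lgals2 at 9.63 ± 0.530 TPM, while Lgals12 had 11 and 8 counts and the keratinocyte gene Lgals7 had 5 and 4. The neighbours of Lgals9 were Nos2, the gene of inducible nitric oxide synthase, with 2 counts in each library, and Ksr1, a scaffold gene of the MAP kinase pathway, at 16.9 ± 1.85 TPM.

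Other motifs were searched on both strands of the same windows, where the interferon element core and the gamma-activated site can overlap. The GC box GGGCGG was present in the windows of 5 of 8 genes (Cd274, Cd276, Cd47, Cd200 and Nectin2) and in 43.0% of all windows. CCAAT was present in that of Cd276 and in 37.7% of all windows. The gamma-activated site TTCNNNGAA (7.95% of all windows) and TATAAA (12.6%) were in none of the 8. Cd24a and Pvr were not included.

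Most receptors of these ligands were not detectable at this depth. Of 9 receptor genes only Sirpa, the gene of the CD47 receptor SIRP alpha, was detected, beside 37.7% of the table. It had 1904 counts (53.4 CPM) and 1670 counts (49.2 CPM), and per length it stood at 0.693 and 0.668 times the level of Cd47. Sirpa is known from myeloid cells and neurons, and of the myeloid markers in the same libraries Csf1r had 18 and 15 counts, S100a8 17 and 12, Itgax 2 and 1, Itgam 0 and 1, and Lyz2 and Adgre1 none. Pdcd1, Siglecg, Cd226, Cd96 and Pvrig had no count, Havcr2 and Tigit had 1 count in each library, and Cd200r1 had 1 and 4. Of 15 genes of other inhibitory ligands and enzymes 6 were detected, a share near the 37.7% of the table. They included the alarmin gene Hmgb1 (163 ± 6.42 TPM), the adhesion receptor gene Ceacam1 (99.7 ± 5.02 TPM), the non-classical class I gene H2-T23 (39.8 ± 3.26 TPM) and Nt5e (6.20 ± 0.336 TPM), the gene of the adenosine-forming ectoenzyme CD73. Fgl1 and Ido2 had no count.

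**Figure D4:**
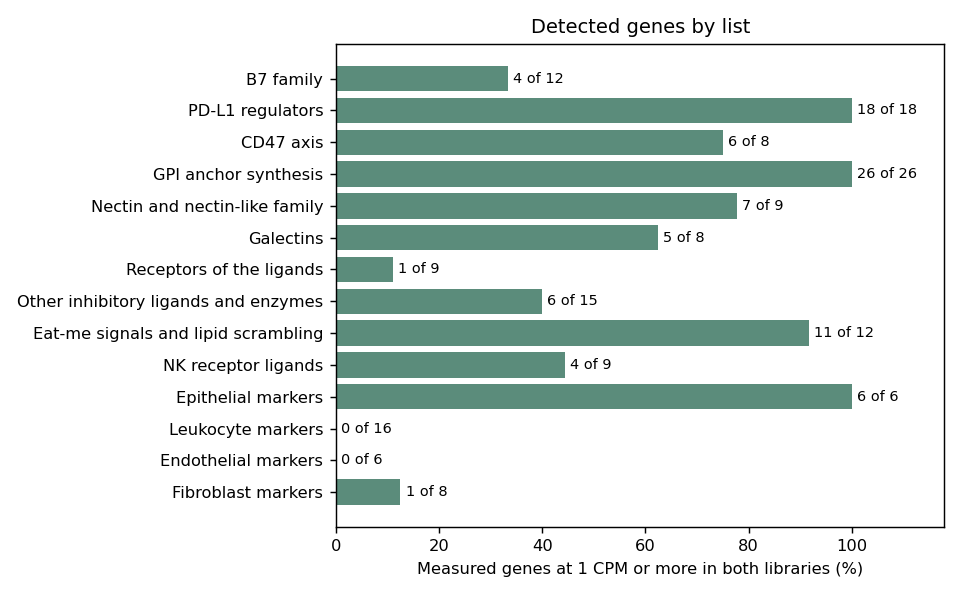
Share of measured genes at 1 CPM or more in both libraries for each of 14 gene lists, with the counts beside the bars. All PD-L1 regulators and GPI anchor genes were detected, 1 of 9 receptor genes was, and no leukocyte marker was. Over all genes in the table the share was 37.7%.

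Between the libraries the ligand genes differed little. Of the 9 genes kept by the expression filter (Pdcd1lg2 was not), 1 was called by a two-sided exact binomial test with Benjamini-Hochberg adjustment over 13336 genes, beside 8.13% of all genes (3.67% higher and 4.46% lower in replicate 2). The test sets one library against the other with counting error as its sole noise. The called gene was Cd200, whose log2 ratio of replicate 2 to replicate 1 was -0.08 (exact binomial adjusted p = 0.0455). The call was lost with upper-quartile scaling (exact binomial adjusted p = 0.0629) and without the filter on low counts. Cd276, with a log2 ratio of -0.10 and an adjusted p of 0.0999, was called only with total counts (adjusted p = 0.0392). At an unadjusted p under 0.05 there were 2 of 9 genes, beside 19.9% of all genes. The log2 ratio was below 0 for 8 of 9 genes with TMM factors and for 7 to 9 under the other scalings, beside 50.7% of all genes, and the median was -0.05 against 0.00 over all genes. The widest ratio was that of Cd274 (-0.38), which rests on 26 and 19 counts (adjusted p = 0.770). With a common dispersion included, edgeR's exact test called 0 of the 9, beside 0.142% of all genes. That dispersion was estimated from the difference between these same 2 libraries. A low number of calls was therefore built in, and the test is no separate check of the binomial calls.

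**Figure D5:**
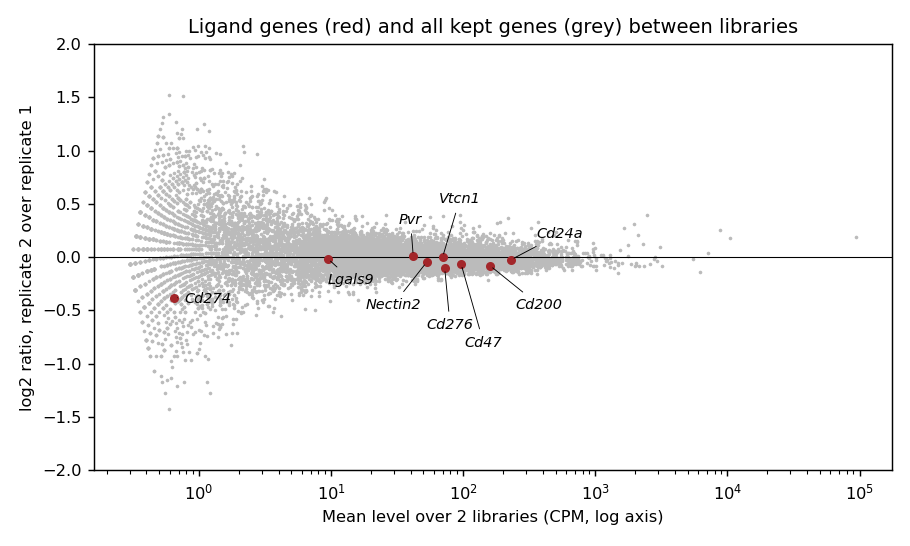
Log2 ratio of replicate 2 to replicate 1 against mean level (CPM, log axis) for 13336 genes (grey) and the 9 kept ligand genes (red). Cd274 lies at -0.38, and the other ligand genes lie between -0.10 (Cd276) and 0.01 (Pvr), inside the grey cloud at their level.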

How the data were processed

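RNA for 2 TUBO libraries was column-purified and treated with DNase, and a kit that keeps strand served for library preparation, per the labels' protocols. The authors deposited raw counts for each gene symbol. Per the submitters' processing notes, which give no roles, the build was mm10 and the tools included STAR 2.7.9a and featureCounts, besides Cell Ranger 3.0.0, FastQC 0.11.9 and R 4.1.1. Which annotation and strand setting were used, and how multiply matching reads were handled, is not stated there.

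Columns were matched to samples by replicate number. CPM was computed from the counts with TMM factors of 1.005 and 0.995 (edgeR 4.0.16, R 4.3.3). TPM was computed from union exonic lengths of GENCODE M21 (GRCm38), in which 98.1% of symbols had a single match. At 35453278 and 34098259 counts, a count of 0 allows up to 3 counts. Genes kept by filterByExpr were compared between libraries by exact binomial tests (scipy 1.17.1), which on data simulated with counting noise alone called 81.0% of 100 genes changed 1.5-fold and 7 of 13136 unchanged genes. Alternatives were total counts, DESeq2 1.42.0 size factors, upper-quartile factors, other minimums, lengths and totals, and each library left out.

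The ligand genes and the 14 lists, which hold 164 genes, 159 of them in the table, were chosen with earlier results of these data known. Named genes were all 10 ligand genes and the 4 highest and 2 lowest others of each list by CPM (all of lists of up to 6). The nearest measured protein-coding genes and some of those within 100 kb are named too. Others within 100 kb are in the plot of both regions alone or are not given. Ratios to genes off the ligand list, the motifs and the windows printed were chosen after values were seen, as were Qpctl, Ifngr1, Ifngr2, Jak1, Itgam, the receptor genes and the leukocyte and fibroblast markers named beyond the rule. Promoter windows are from RefSeq (GRCm38.p6), matched by symbol for 8 of 10 genes. Protein sequences were not used here.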

Additional observations from a re-analysis of the deposited data

How the results depend on the processing

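The summed level of the 10 genes was 732 CPM and stayed within 1 SD under total counts, DESeq2 size factors and upper-quartile factors, and between 720.0 and 744 CPM with either library left out. It was 818 CPM when Gm26917 and Gm42418, which take a large share of the counts, were left out of the totals. The number of detected genes was 9 at 0.5 CPM, 8 at 2 CPM and 7 at 10 CPM, and 8 under each other setting tried. Of 45 pairs of the genes, 44 kept their order with the longest transcript as length (Cd47 and Nectin2 changed places), 42 without division by length, and 45 with either library left out. With the longest transcript the ratio of Cd24a to Cd47 was 6.88, of Cd200 to Cd47 3.70 and of Nectin2 to Pvr 1.34. In CPM these were 2.38, 1.65 and 1.26, and the ratio of Cd276 to Vtcn1 turned round to 1.04. These shifts follow from the lengths used. With either library left out, the ratios ran from 5.72 to 5.87 (Cd24a to Cd47), 3.11 to 3.14 (Cd200 to Cd47), 2.17 to 2.26 (Nectin2 to Pvr), 0.718 to 0.770 (Cd276 to Vtcn1) and 102 to 123 (Cd276 to Cd274). Between libraries, 2 ligand genes were called with total counts, 1 with DESeq2 size factors, and 0 with upper-quartile factors, without the filter or in edgeR's exact test, which called 19 genes in all against 1084 in the binomial test. The binomial test has counting error as its sole noise, while edgeR's exact test adds a dispersion estimated from these same 2 libraries. Why the calls moved with the scaling was not tested. No paired analysis was possible because the labels give 1 group. Depth limits Cd274 and Pdcd1lg2, with 26 and 19 counts for the first and none for the second.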
